A study of Arabidopsis thaliana with 4 samples.

Results

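Accessible regions in the short gaps between neighbouring genes were described across 4 accessions of the plant Arabidopsis thaliana named Bur-0, Tsu-1, Bay-0 and Est-1. A gap is the stretch between 2 neighbouring spans of protein-coding genes, with overlapping spans joined, and a short gap is 200 to 1000 bp wide. Overlapping peaks of the 4 lists were merged into 36153 regions on the 5 nuclear chromosomes of the TAIR10 build. The midpoint of 4223 of them, 11.7%, lay in a short gap. Chromatin was profiled by DNase I-seq, in which the enzyme cuts open DNA and the short pieces cut at both ends are sequenced, in nuclei of whole 7-day-old seedlings grown in long days. There was a single library and a single peak list for each accession. Differences between accessions therefore have no replicate check, and no p-values were computed. All 4 groups carried the INTACT transgenes of the label UBQ10:NTF::ACT2:birA, which put a biotin tag on nuclei for capture, and the labels name no treatment. Every label also names Col-0 as genetic background beside the accession in the title, and the accession called Tsu-1 in its sample labels, as here, is Tsu-0 in the description of the series. The nuclei of all tagged cell types were pooled, so a weak call can come from few cells or from weak opening in many, which cannot be told apart. Intervals are 95% exact (Clopper-Pearson) intervals over regions or gaps and cover counting error only.

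The Arabidopsis genome is compact, and many neighbouring genes stand so close that the stretch between them has to hold the promoter of 1 gene, of both or of neither. Where neighbours are transcribed away from each other the stretch holds both promoters, where they point the same way it holds 1 promoter and the end of the other gene, and where they point at each other it holds both gene ends. Promoters near the transcription start are usually depleted of nucleosomes and open to DNase I. Strand and sequence were not used here, so these kinds of pair were not told apart and no motif was counted.

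Nuclear peaks numbered 29699 for Est-1, 28821 for Bay-0, 27388 for Tsu-1 and 25298 for Bur-0, nearly all of them 150 bp wide. With organelle peaks the Est-1 list counted exactly 30000, and no source used here says whether it was cut at that length, which would bear on its missing and private counts. The sequencing depth is unknown here. At marker genes of green tissue, root, seed and flower, a peak was sought within 1000 bp outside or 200 bp inside a gene end. All 5 green-tissue markers (RBCS1A, LHCA2, LHCB1.3, LHCB2.1 and PSBO1) had such a peak in every list. The seed storage genes SESA2, SESA3 and SESA4 had none in any list, and neither did AG, a floral regulator, nor the root genes PLT1 and COBL9. Of the 5 markers of each tissue, 2 or 3 of the root list, 3 or 4 of the flower list and 0 to 2 of the seed list had a peak in a given accession. The share of all genes with such a peak is not given here, so these counts do not tell tissues apart. A peak is not expression.

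Short gaps were dense in open chromatin, and most held no more than 1 region. The 7908 short gaps covered 4263 kb, 3.58% of the nuclear sequence spanned, and held the 11.7% of all regions given above. A region stood in 3604 of the 7908 gaps, 45.6% (44.5 to 46.7). Counting only regions that lay wholly inside the gap, 25.3% of the gaps held one and 6.13% of all regions were in short gaps, and with the stronger 50% of each list 22.9% of the gaps held one. The share of gaps with a region rose with the width of the gap. It was 38.3% (36.5 to 40.1) at 200 to 400 bp, 46.4% (44.2 to 48.5) at 400 to 600 bp, 50.2% (47.8 to 52.6) at 600 to 800 bp and 53.2% (50.6 to 55.8) at 800 to 1000 bp, each class after the first without its lower bound. Gaps under 200 bp held one in 19.4% of cases (18.3 to 20.5), and gaps over 3000 bp in 75.5% (74.2 to 76.8). Per kb of gap the order was the reverse, with 1.33 regions at 200 to 400 bp, 0.799 at 800 to 1000 bp and 0.333 over 3000 bp. Because a midpoint needs only 1 base of the gap while the peak itself is 150 bp wide, narrow gaps can be reached by peaks that lie mostly in the genes beside them.

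**Figure D1:**
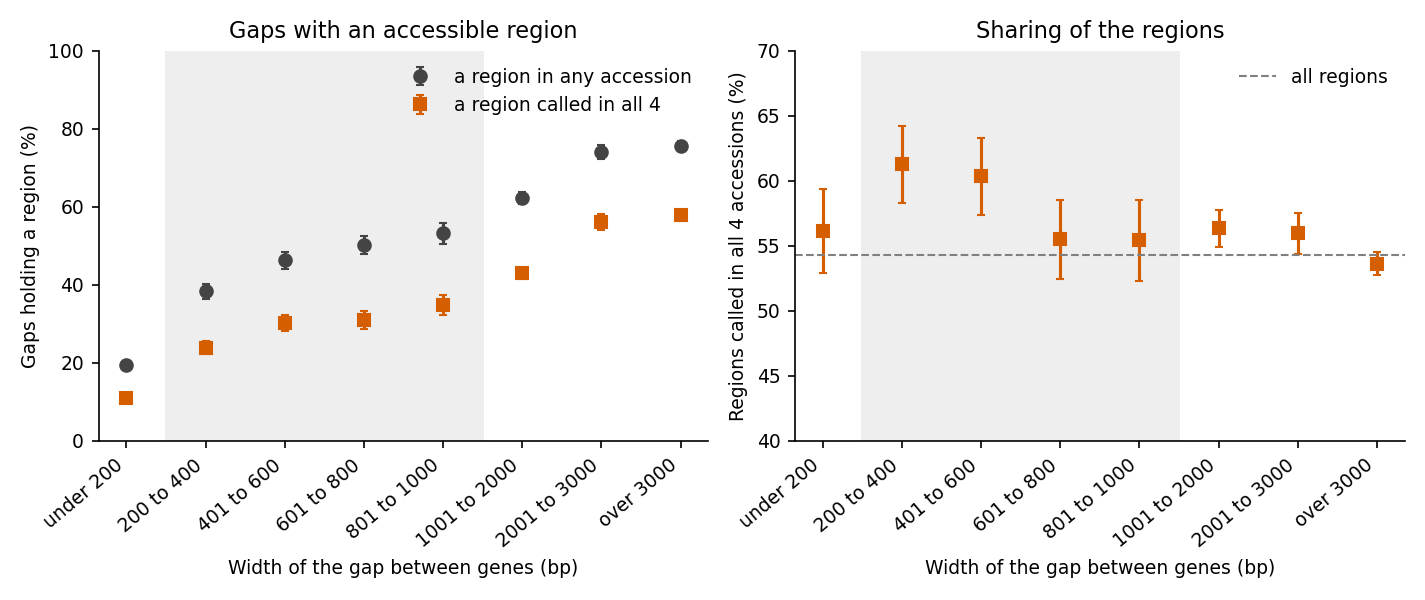
Left, share of gaps between protein-coding genes that hold an accessible region, by width of the gap in bp, for a region called in any accession and for a region called in all 4; right, share of the regions in those gaps that were called in all 4 accessions, on an axis that starts at 40%. Points are shares over the merged lists, bars are 95% exact intervals, the grey band marks short gaps and the dashed line all regions; the share of gaps with a region rises from 38.3% to 53.2% within the band, while the share of regions in all 4 falls from 61.3% to 55.4%.

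The accessions differed in how many short gaps held a peak. Est-1 had a peak in 3214 short gaps (40.6% of all), Bay-0 in 3115 (39.4%), Tsu-1 in 2902 (36.7%) and Bur-0 in 2634 (33.3%). This is also the order of the lengths of their lists. As a share of its own list, the peaks in short gaps came to 11.7% (11.3 to 12.1) for Bur-0, 11.8% (11.4 to 12.2) for Tsu-1, 12.04% (11.7 to 12.4) for Est-1 and 12.05% (11.7 to 12.4) for Bay-0. These 4 intervals overlapped.

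Regions stood near the edges of the gaps, next to the genes. The midpoint was a median of 95 bp from the nearest gene (quartiles 52 and 165 bp), and 2202 of the 4223 regions, 52.1% (50.6 to 53.7), were less than 100 bp from a gene. Those stretches make up 37.1% of the sequence of short gaps. In gaps of 800 to 1000 bp the contrast was 38.2% (35.2 to 41.2) of regions against 22.3% of sequence. It was 73.0% (70.2 to 75.6) against 68.6% in gaps of 200 to 400 bp, where little of the sequence is further away. Of all regions in short gaps, 52.5% lay wholly inside the gap, 47.2% reached into 1 of the flanking genes and 13 regions reached into both. Gene spans include untranslated ends, so such a region can cover the first or the last part of a transcript.

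The profile across the gap had the same shape in each accession. In steps of 10% of the gap width, each of the 2 steps at either edge held 12.1 to 13.4% of the regions of an accession, and the step from 50 to 60% held 6.61 to 6.92%. Regions in the middle 20% of the gap were fewer, 14.2% of all, but ranked higher than those in the outer 20% on either side. Rank is the percentile of the authors' signal value within a list, with 100 at the top, and it was used because no scaling of the signal is stated. Median ranks in the middle were 54.4 for Bur-0, 53.7 for Bay-0, 50.3 for Est-1 and 51.6 for Tsu-1, against 43.5, 43.9, 42.8 and 44.4 in the outer parts. The share called in all 4 accessions was alike, with 58.8% (54.8 to 62.8) in the middle and 57.5% (55.4 to 59.6) in the outer parts.

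**Figure D2:**
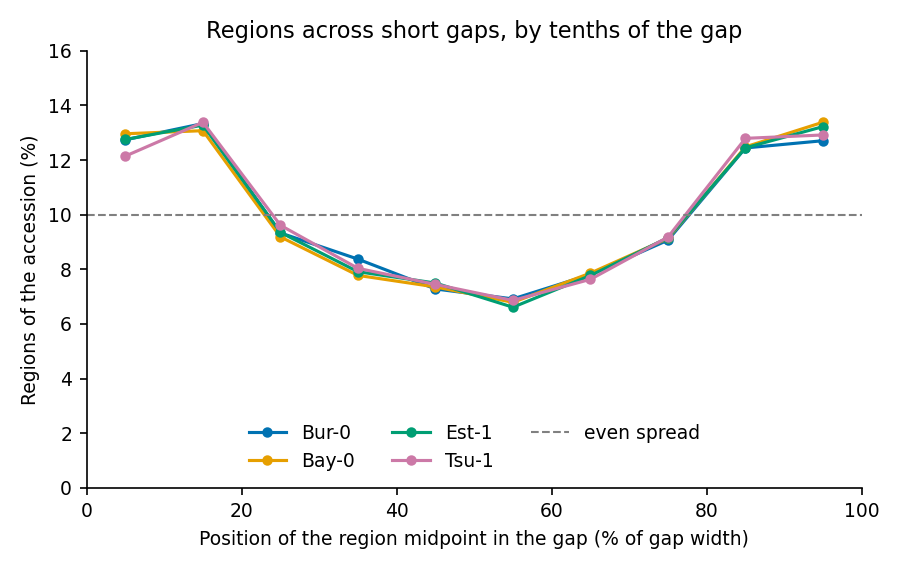
Share of the short-gap regions of each accession (vertical axis, %) by the step of 10% of gap width in which the midpoint lies (horizontal axis, from the gene with the lower coordinate), with a dashed line at an even spread. The 4 lines lie close together, above 12% in the outermost steps and below 7.5% in the 2 central steps.

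Gaps with more than 1 region were a minority. Of the 3604 gaps with a region, 3019 held 1, 551 held 2 and 34 held 3. Among the 551 gaps with 2 regions, 478 (86.8%) had them on opposite sides of the centre, and the midpoints were a median of 390 bp apart. Regions do not overlap and peaks are nearly all 150 bp wide, so part of this spacing is fixed in advance. No expected share is given here. Both regions were called in all 4 accessions in 156 of the 551 gaps, 1 of them in 279 and neither in 116. Regions that were alone in their gap had a median rank of 42.3 for Bur-0, 41.6 for Bay-0, 40.3 for Est-1 and 40.4 for Tsu-1. In gaps with 2 regions the medians were 58.4, 61.2, 61.6 and 60.1, in gaps that were also wider (a median of 742 bp against 510 bp).

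By the naming rule, 3 of the 34 gaps with 3 regions are described, chosen for the widest calling and then the highest rank. In the gap between ABCA1, an ATP-binding cassette transporter gene, and AT2G41705, all 3 regions were called in all 4 accessions. The weakest of them (chromosome 2, 17397081 to 17397330) ranked 57.7 for Bur-0, 82.7 for Bay-0, 71.2 for Est-1 and 78.4 for Tsu-1. Bur-0 was the lowest there, and the first region of the same gap (17396481 to 17396670) ranked 86.7 to 91.7. The gap between SLAH2, a homologue of the anion channel SLAC1, and AT4G27980 held outer regions called in all 4 accessions and a middle region (chromosome 4, 13920741 to 13920890) without a Bur-0 call. The gap between SLK2, a SEUSS-like transcriptional co-regulator, and BAG2, a BAG-family co-chaperone, had the same pattern, with a middle region (chromosome 5, 24939521 to 24939670) that ranked 99.5 for Bay-0, 99.3 for Est-1 and 99.1 for Tsu-1 and had no Bur-0 call. A Bur-0 peak stood 110 bp from it, and the region at 24939261 to 24939430 in the same gap ranked 99.6 for Bur-0 and 98.0 to 98.1 in the other 3 lists.

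Regions in short gaps were called in all 4 accessions in 2458 of 4223 cases, 58.2% (56.7 to 59.7), where the figure for all regions was 54.3%. For regions wholly inside a short gap the share was 55.7% (53.6 to 57.8), an interval that includes the figure for all regions. That figure was not limited in the same way. Of the 4223 regions, a further 665 were called in 3 accessions, 495 in 2 and 605 in 1. For regions outside short gaps the shares were 53.8% (53.3 to 54.4) in all 4 and 17.9% (17.5 to 18.4) in 1, against 14.3% (13.3 to 15.4) in 1 for short gaps. The share in all 4 was 61.3% (58.3 to 64.2) in gaps of 200 to 400 bp, 60.4% (57.4 to 63.3) at 400 to 600 bp, 55.5% (52.4 to 58.5) at 600 to 800 bp and 55.4% (52.3 to 58.5) at 800 to 1000 bp. Just outside these limits it was 56.1% (52.9 to 59.4) in gaps under 200 bp and 56.4% in gaps of 1000 to 2000 bp. With the gap as the unit, and an accession counted wherever any region of the gap was called in it, this order was gone. Then 65.2% (63.7 to 66.8) of the 3604 gaps were called in all 4 accessions, with 62.7% at 200 to 400 bp, 67.5% at 400 to 600 bp, 63.9% at 600 to 800 bp and 67.3% at 800 to 1000 bp. Where all 4 accessions had a single peak in a short-gap region, these stood at exactly the same place in 20.4% (18.8 to 22.1) of 2427 regions, and their starts spread over a median of 40 bp. Elsewhere the share was 21.2% (20.5 to 21.8), with the same median.

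Weak regions in short gaps were shared more often than weak regions of wide gaps. Regions were sorted by the highest rank they reached in any list, a comparison added after the data were seen. Below rank 25, short-gap regions were called in all 4 accessions in 12.9% (10.9 to 15.04) of cases and the other regions in 9.92% (9.26 to 10.6). From 25 to 50 the shares were 51.8% (48.7 to 54.8) and 41.2% (40.1 to 42.3), from 50 to 75 they were 78.0% (75.4 to 80.4) and 71.4% (70.3 to 72.4), and above 75 they were 90.8% (88.9 to 92.5) and 87.5% (86.8 to 88.2). The difference was widest against gaps over 3000 bp, whose share from 25 to 50 was 33.5% (31.8 to 35.4). It was not particular to short gaps. Regions inside gene spans reached 49.3% (47.3 to 51.3) at those ranks, and regions in gaps under 200 bp 71.7% (65.7 to 77.1). Regions are not replicates of an accession, and the difference was not tested.

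**Figure D3:**
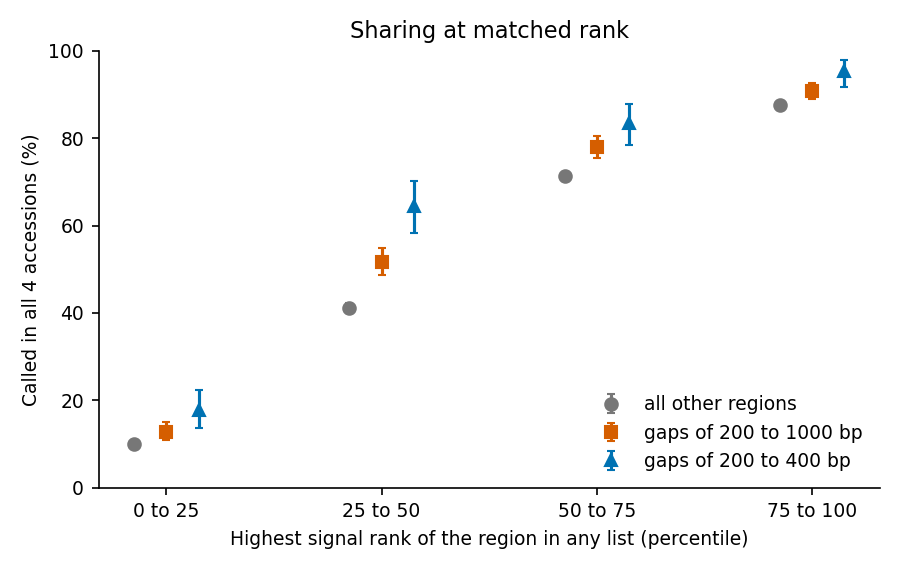
Share of regions called in all 4 accessions (vertical axis, %) by the highest signal rank of the region in any list (horizontal axis, percentile), for regions outside short gaps, in short gaps and in gaps of 200 to 400 bp. Points are shares and bars 95% exact intervals; in each rank class the short-gap regions lie above the others, as from 25 to 50 with 51.8% against 41.2%.

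Among the pairs of accessions, the highest sharing was between Bay-0 and Est-1, which both held 81.1% of the short-gap regions that either held. Bay-0 and Tsu-1 shared 76.8% and Est-1 and Tsu-1 76.4%, and the pairs with Bur-0 lay at 72.4% for Tsu-1, 72.3% for Bay-0 and 69.8% for Est-1. Over all regions the corresponding values were 76.4% for Bay-0 and Est-1 and 67.4 to 75.2% for the others. Of the 495 short-gap regions called in exactly 2 accessions, 213 were called in Bay-0 and Est-1, the 2 longest lists. Over all regions the count was 1490 of 4568.

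Bur-0 lacked the most short-gap regions that the other 3 lists held, and Bay-0 and Est-1 lacked few. Bur-0 had no call at 368 of 2826 such regions, 13.02% (11.8 to 14.3), with 13.1% over all regions. Tsu-1 had none at 170 of 2628, 6.47% (5.56 to 7.48), with 5.6% over all regions. For Est-1 the count was 69 of 2527, 2.73% (2.13 to 3.44), beside 3.73% over all regions, and for Bay-0 it was 58 of 2516, 2.31% (1.76 to 2.97), beside 3.5%. The shares for Bur-0 and Tsu-1 were thus near the background, and those for Est-1 and Bay-0 were below it. With lists of equal length, Bur-0 fell to 8.82% and Est-1 stood at 4.23%. These shares also depend on which lists are compared. Without Bur-0, 12.1% of the regions called in both remaining lists were missing from Tsu-1 and 4.82% from Bay-0, and without Tsu-1 4.85% were missing from Est-1. Missing shares over all regions were not computed without an accession or with lists of equal length, so these values have no background.

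The missing calls of Tsu-1 were more frequent in narrow than in wide gaps, a pattern that has no replicate check. At matched rank it was seen only among regions below rank 25. Its missing share was 7.67% (5.83 to 9.87) at 200 to 400 bp, 6.85% (5.09 to 8.98) at 400 to 600 bp, 5.68% (3.99 to 7.81) at 600 to 800 bp and 5.39% (3.71 to 7.52) at 800 to 1000 bp. Neighbouring intervals overlapped within this range. Outside it the share was 12.5% (9.96 to 15.4) in gaps under 200 bp, 3.96% (3.20 to 4.83) in gaps of 2000 to 3000 bp and 4.43% (3.96 to 4.93) in gaps over 3000 bp. Bay-0 stood at 2.05% (1.03 to 3.64) under 200 bp and 3.58% (2.86 to 4.42) at 2000 to 3000 bp, Est-1 at 2.60% (1.43 to 4.32) and 3.33% (2.64 to 4.15), and Bur-0 at 12.4% (9.83 to 15.3) and 13.3% (12.03 to 14.7). Over 3000 bp, Bur-0 stood at 12.3% (11.6 to 13.1), Est-1 at 4.36% (3.896 to 4.86) and Bay-0 at 4.35% (3.88 to 4.85). Regions in narrow gaps also ranked lower in every list, as given below. The Tsu-1 share among regions whose lowest rank in the other 3 lists was under 25 was 23.5% (18.7 to 28.9) in gaps under 200 bp, 17.2% (12.8 to 22.3) at 200 to 400 bp and 13.6% (8.64 to 20.1) at 800 to 1000 bp. At 2000 to 3000 bp it was 10.8% (8.09 to 14.0), an interval that lay below that of gaps under 200 bp, and over 3000 bp it was 12.4% (10.8 to 14.3). Where that lowest rank was 25 to 50, the Tsu-1 share did not fall with width. It was 3.98% (1.61 to 8.02) under 200 bp and 4.37% (1.91 to 8.43) at 200 to 400 bp. In wider gaps it was 6.55% (4.85 to 8.61) at 1000 to 2000 bp and 4.68% (3.74 to 5.79) over 3000 bp. Among regions with a lowest rank under 25 the other accessions ran the opposite way. From gaps under 200 bp to gaps of 2000 to 3000 bp, Bur-0 went from 21.8% (17.2 to 27.0) to 37.96% (33.7 to 42.3), Bay-0 from 2.68% (1.08 to 5.45) to 8.04% (5.69 to 10.95) and Est-1 from 3.82% (1.85 to 6.91) to 6.68% (4.55 to 9.40), where the Est-1 intervals overlapped. The part of list length or signal strength in this pattern was not tested further.

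**Figure D4:**
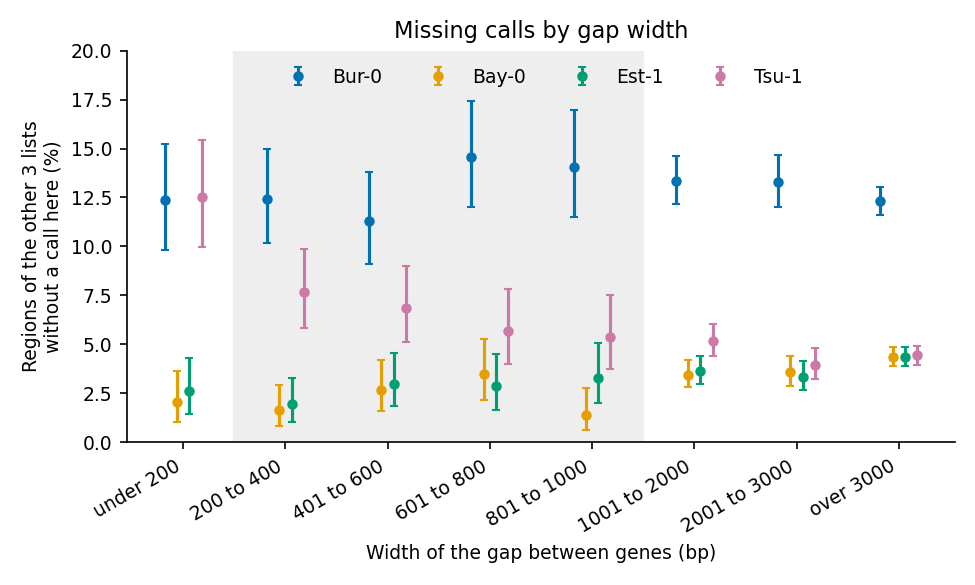
Share of the regions called in the other 3 lists that had no call in the accession named (vertical axis, %), by width of the gap between genes in bp, with 95% exact intervals. Bur-0 lies between 11.3% and 14.6% at all widths shown, Tsu-1 stands at 12.5% under 200 bp, 3.96% at 2000 to 3000 bp and 4.43% over 3000 bp, and Bay-0 and Est-1 stay below 4% up to 3000 bp and reach 4.35% and 4.36% beyond.

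Missing calls were mostly at weak regions. Where the lowest rank in the other 3 lists was under 25, Bur-0 lacked 29.6% (26.5 to 32.8) of the short-gap regions, Tsu-1 15.7% (13.2 to 18.4), Est-1 5.13% (3.67 to 6.95) and Bay-0 4.89% (3.46 to 6.67). Over all regions of this rank the shares were 32.6%, 13.9%, 7.36% and 6.91% in the same order. The concentration at weak regions was thus not particular to short gaps. From 50 to 75 the short-gap shares were 2.51%, 1.86%, 1.199% and 0.604%, against 4.30%, 1.75%, 1.64% and 1.60% over all regions. Above 75 Bur-0 lacked 2.94% (1.66 to 4.80) of the short-gap regions, no fewer than from 50 to 75. Tsu-1 lacked 0.897%, Est-1 0.481% and Bay-0 none of 414, which allows up to 0.887% (exact interval). Over all regions above 75 the shares were 2.46%, 0.708%, 1.07% and 0.859% in the same order. Some of the missing regions had a call of the same accession close by. A peak of the accession itself lay within 150 bp of 49 of the 368 regions that Bur-0 lacked (13.3%, 10.02 to 17.2), 24 of 170 in Tsu-1 (14.1%), 20 of 69 in Est-1 (29.0%) and 12 of 58 in Bay-0 (20.7%). Over all regions these shares were much the same, at 13.6%, 16.4%, 23.8% and 23.98% in this order. Another peak of the accession stood in the same gap in 70, 32, 34 and 18 cases.

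Est-1 held the most private regions in short gaps, those called in it alone, with 222, followed by Bay-0 with 158, Bur-0 with 121 and Tsu-1 with 104. As a share of the short-gap regions called in the accession they made up 6.14% (5.38 to 6.97) for Est-1, 4.45% (3.797 to 5.18) for Bay-0, 4.00% (3.33 to 4.77) for Bur-0 and 3.21% (2.63 to 3.88) for Tsu-1. Over all regions the shares were higher, at 7.38%, 5.3%, 5.69% and 4.36%. Private regions were weak, with a median rank of 26.8 for Bur-0, 11.1 for Bay-0, 10.5 for Tsu-1 and 9.71 for Est-1. Private regions of the whole series were weak as well, with medians of 26.1, 10.8, 15.2 and 10.8 in the same order.

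The strongest regions that an accession lacked, or that it alone held, often stood close to another call. By rule, the 2 leading missing and the 2 leading private short-gap regions of each accession are named. Of the 8 missing ones, 6 had a peak of the same accession 10 to 190 bp away, and of the 8 private ones, 7 stood 10 to 250 bp from a peak of another accession. No share of all missing or all private regions at these distances is given here, so these counts have no background. Beside CIP1, which encodes a protein that binds the light-signalling repressor COP1, Est-1 had no call at a region (chromosome 5, 16725661 to 16725810) that ranked 93.3 for Bur-0, 94.1 for Bay-0 and 93.7 for Tsu-1. Est-1 held a private call 10 bp away in the same gap (16725501 to 16725650), with a rank of 94.7. A private Est-1 region between SPA1, a partner of COP1 in the repression of light responses, and AT2G46360 (chromosome 2, 19027941 to 19028090) ranked 99.8. It stood 70 bp from a region of the same gap called in all 4 lists.

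Bur-0 alone held a region between AT2G43320 and INT1, an inositol transporter (chromosome 2, 18000101 to 18000250, rank 98.3), and one between RPN12b, a proteasome regulatory subunit gene, and AT5G42050 (chromosome 5, 16814881 to 16815030, rank 91.1). Peaks of another list stood 10 and 50 bp from them. Tsu-1 lacked a region between AT5G67550 and ARLA1D, an ARF-like GTPase gene, and one between PLDEPSILON, a phospholipase D, and PRA7, a prenylated Rab acceptor. These ranked 80.4 to 86.0 and 78.9 to 82.0 elsewhere, with Tsu-1 peaks 190 and 70 bp away. The second region that Est-1 lacked lay between AT3G04010 and AT3G04020, with an Est-1 peak 10 bp away, and Bay-0 lacked one between SSR16, a ribosomal protein S16 gene, and AT4G34630, with its own peak 170 bp away. Private calls of Tsu-1 between AT5G15940 and AT5G15950 and between AT1G69990 and AT1G70000 ranked 98.4 and 88.9, and the one of Bay-0 between AT3G47540 and AT3G47550 ranked 80.4.

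In 3 of these 16 cases no such neighbouring peak was found. Bur-0 had no call between TET15, a tetraspanin gene, and AT5G57815 (chromosome 5, 23426321 to 23426530), where the rank was 96.5 for Bay-0, 93.5 for Est-1 and 98.0 for Tsu-1. The closest Bur-0 peak was 4710 bp away. Bay-0 had none between AT4G09160 and AT4G09170 (chromosome 4, 5842661 to 5842830), a region of middle strength that ranked 61.6 for Bur-0, 61.8 for Est-1 and 65.9 for Tsu-1, with its own closest peak at 2930 bp. Bay-0 alone held a region between AT1G61310 and AT1G61320 (chromosome 1, 22616381 to 22616530) at rank 69.4, and the closest peak of any other list lay 8630 bp away. The absence of a call does not measure closed chromatin.

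Short-gap regions were of middling strength, and few were among the strongest of the genome. Their median rank was 47.6 for Bur-0, 47.8 for Bay-0, 46.9 for Est-1 and 46.3 for Tsu-1, against 50.6, 50.5, 50.5 and 50.6 for the regions outside short gaps. For the regions that lay wholly inside a short gap the medians were higher, at 53.95, 53.9, 53.9 and 51.6. The regions outside short gaps were not limited in the same way. They include the regions inside gene spans, which had lower median ranks in every list. Whether the direction turns between sets limited alike was therefore not tested. Ranks were lowest in the narrowest gaps, with no steady order above 400 bp. The medians were 43.5, 41.6, 39.9 and 39.7 at 200 to 400 bp, 50.1, 48.9, 49.1 and 49.5 at 400 to 600 bp, 47.6, 48.5, 47.3 and 47.4 at 600 to 800 bp, and 48.1, 51.1, 52.2 and 47.9 at 800 to 1000 bp. Under 200 bp they were 32.3, 30.9, 29.0 and 28.6, and over 3000 bp they were 56.7, 57.0, 57.5 and 57.5. Ranks of at least 99 were reached by 11 short-gap regions in Bur-0, 16 for Bay-0, 14 for Est-1 and 11 for Tsu-1, or 0.340 to 0.451% of those called. Over all regions the share was 0.997 to 1.01%. Within short gaps it was 0 to 0.253% at 200 to 400 bp and 0.716 to 1.09% at 800 to 1000 bp. Within the regions called in all 4 accessions, the highest and the lowest rank were a median of 18.1 apart in short gaps and 17.6 over all regions.

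The 8 strongest short-gap regions called in all 4 accessions stood in gaps of 506 to 985 bp beside genes of several kinds. The first lay between ASY1, a meiotic chromosome axis gene, and AT1G67390 (chromosome 1, 25243941 to 25244090), and ranked 99.9 for Bur-0, 99.5 for Bay-0, 99.7 for Est-1 and 100 for Tsu-1. A region exactly midway between AT5G15940 and AT5G15950 ranked 99.6, 99.8, 99.6 and 99.5 in the same order. Between the beta-glucosidase genes BGLU27 and BGLU16 (chromosome 3, 22209441 to 22209590) the ranks were 99.4, 99.9, 99.9 and 99.7. In each of these gaps the 4 accessions differed by less than 1 percentile. The gap between SPA1 and AT2G46360 held one at 99.7, 99.7, 99.2 and 99.8 (chromosome 2, 19027661 to 19027870), and that between AT2G43320 and INT1 one at 99.6, 99.3, 99.2 and 98.96.

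The other 3 regions of this set had a wider spread. Beside PDH-E1 BETA, which encodes a subunit of pyruvate dehydrogenase (chromosome 1, 10586721 to 10586890), the ranks were 98.3 for Bur-0, 99.6 for Bay-0, 99.8 for Est-1 and 98.9 for Tsu-1. Between MCM10, a DNA replication gene, and SYTA, a synaptotagmin gene (chromosome 2, 9014101 to 9014270), they were 98.6, 99.4, 99.2 and 98.1. The SLK2 region given above completed the set, highest in Bur-0. The distance of these 8 midpoints to the nearest gene ran from 106 to 492 bp, so all were further out than the median member.

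**Figure D5:**
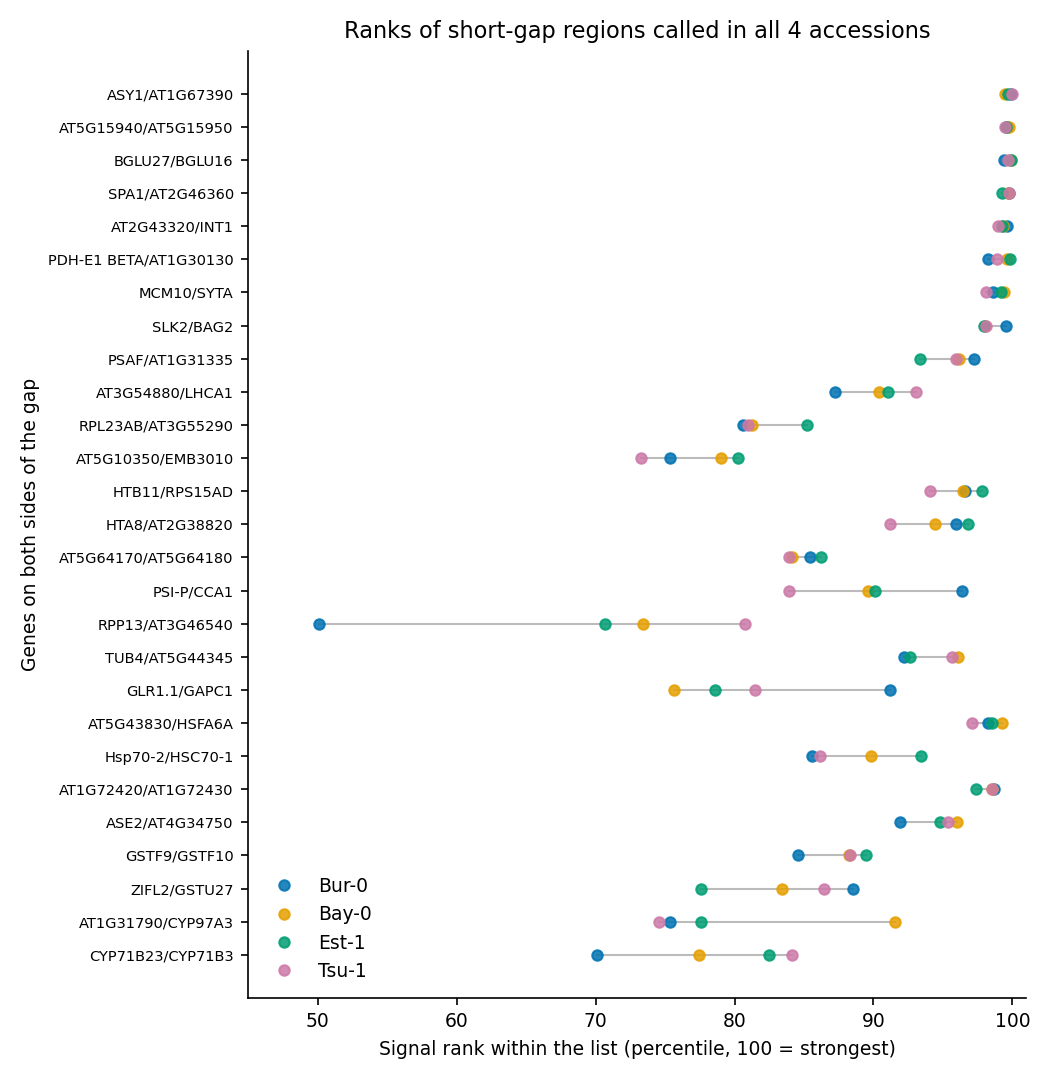
Signal rank within each list (horizontal axis, percentile, not from 0) of the 8 strongest short-gap regions called in all 4 accessions and of the leading regions beside genes of 10 gene lists, with 1 row per gap named by both flanking genes and 1 coloured point per accession. The upper 8 rows lie between 98.0 and 100, and the widest spread among the rows is that beside RPP13, from 50.1 in Bur-0 to 80.7 for Tsu-1.

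Gene groups were compared by the short gaps beside their members. The background is that 45.6% of all short gaps held a region and 29% held one called in all 4 accessions, and that 48.7% of the 27444 protein-coding genes flanked a short gap. A region in a gap is counted for both neighbours, since the gene it serves is not known. Groups were collected by symbol and synonym, so unnamed members were not counted. The symbol patterns also left out some named members, such as RPS15AD and Hsp70-2, and the heat shock group took in BRK1, a subunit of the SCAR/WAVE complex, through a synonym. The groups are small, and shares are given as descriptions.

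Photosynthesis genes seldom flanked a short gap, with 11 of 50 (22.0%). Of the 14 gaps beside them, 9 held a region and 6 one called in all 4 accessions. The region beside PSAF, a photosystem I subunit gene (chromosome 1, 11216061 to 11216250), ranked 97.3 for Bur-0, 96.2 for Bay-0, 93.3 for Est-1 and 95.9 for Tsu-1. Its midpoint was 14 bp from the gene. Beside LHCA1, a light-harvesting gene of photosystem I, the region (chromosome 3, 20338581 to 20338770) ranked 87.3, 90.4, 91.0 and 93.0 and stood 827 bp from LHCA1 and 77 bp from its neighbour AT3G54880. Gaps beside LHB1B1 and RBCS3B were among the 5 with no region in any list.

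For a region in any list, the share of short gaps beside clock genes stood above the background, in a small group. So did the shares of all other groups except cytochrome P450. Reference genes had 87.5% (47.3 to 99.7) and heat shock genes 62.5% (43.7 to 78.9). Of 17 clock genes, 9 flanked a short gap, and 7 of the 9 gaps (77.8%, 39.99 to 97.2) held a region, 6 of them in all 4 accessions (66.7%, 29.9 to 92.5). The interval for any region includes the background, and the lower bound for regions in all 4 stands less than 1 percentage point above it. The region between CCA1, a MYB-related morning factor of the clock, and PSI-P, which encodes a thylakoid protein (chromosome 2, 19245381 to 19245570), ranked 96.4 for Bur-0, 89.6 for Bay-0, 90.1 for Est-1 and 84.0 for Tsu-1. Bur-0 was highest there and Tsu-1 lowest. LNK1, a light-induced clock co-activator (AT5G64170), had a region in a gap of 248 bp (chromosome 5, 25676801 to 25677030) that ranked 84.0 to 86.3 in the 4 lists. The gaps beside LHY, the partner of CCA1, LUX (listed as PCL1), LNK2 (AT3G54500) and PRR7 also held regions in all 4 accessions, with lowest ranks of 71.6, 81.3, 53.5 and 53.6. The gap beside PRR3 was called in 3 accessions, and those beside RVE8 and PRR5 held no region.

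Of histone and ribosomal protein genes, 13 of 21 (61.9%) and 21 of 36 (58.3%) flanked a short gap, beside 48.7% of all protein-coding genes. Shares were similar or higher for heat shock genes (27 of 46, 58.7%) and reference genes (8 of 11, 72.7%). Of 14 gaps beside core histone genes, 7 held a region in all 4 accessions (50%, 23.04 to 77.0), and 6 held none. The leading one lay between HTB11, an H2B gene, and RPS15AD, a ribosomal protein gene, in a gap of 393 bp (chromosome 3, 16914261 to 16914530). It ranked 96.6 for Bur-0, 96.5 for Bay-0, 97.8 for Est-1 and 94.1 for Tsu-1. Beside HTA8, an H2A gene, the ranks were 96.0, 94.4, 96.8 and 91.2. Of 26 gaps beside ribosomal protein genes, some of them for organelle ribosomes, 10 held a region in all 4 accessions (38.5%, 20.2 to 59.4) and 10 held none. The region between RPL23AB and AT3G55290 (chromosome 3, 20501741 to 20501990) ranked 80.6, 81.3, 85.2 and 80.9, and that between AT5G10350 and RPS6B (listed as EMB3010) 75.4, 79.0, 80.2 and 73.2.

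Of 11 reference genes, 8 flanked a short gap, and 5 of the 8 gaps held a region in all 4 accessions (62.5%, 24.5 to 91.5). The region beside TUB4, a beta-tubulin gene (chromosome 5, 17861181 to 17861350), ranked 92.2 for Bur-0, 96.1 for Bay-0, 92.6 for Est-1 and 95.6 for Tsu-1. The one between GLR1.1, a glutamate receptor-like gene, and GAPC1, a cytosolic glyceraldehyde-3-phosphate dehydrogenase (chromosome 3, 1080601 to 1080910), ranked 91.2, 75.6, 78.6 and 81.5, with Bur-0 well above the others. The gap beside ACT2 held a region in all 4 lists with a lowest rank of 62.4. ACT2 is named in the transgene label, and the part of transgene reads in that rank was not tested.

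Heat shock genes lay near the short-gap background for calls in all 4 accessions, with 12 of 32 gaps (37.5%, 21.1 to 56.3). The gap beside HSFA6A, a heat shock factor gene, held 3 regions, and the strongest (chromosome 5, 17624861 to 17625190) ranked 98.2 for Bur-0, 99.2 for Bay-0, 98.6 for Est-1 and 97.1 for Tsu-1. Between the chaperone genes Hsp70-2 and HSC70-1 (chromosome 5, 552941 to 553090) the ranks were 85.6, 89.9, 93.5 and 86.2. Among the heat-induced small heat shock genes, the gaps between HSP17.6II and HSP17.6A and beside HSP17.4 held no region in any list. Gaps beside HSP21 and HSP23.6-MITO held regions in all 4. The gap between HSP18.2 and EXO70H7 held a region in all 4, and that between VIP2 and HSP18.2 a region called in 3. The gap beside HSP1 held none. Both gaps beside HSP90.1 held none, and the one beside HSP101 held a region called in 3 accessions.

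Some families stand in tandem arrays, with related genes on both sides of a gap. SAUR genes, which encode auxin-induced growth regulators, had a region in all 4 accessions in 18 of 37 gaps (48.6%, 31.9 to 65.6). This interval lay above the background of 29%. It makes no allowance for the number of groups compared, or for gaps that neighbour each other in an array. Of the 37 gaps, 11 had a SAUR gene on both sides, of which 5 were open in all 4. The strongest beside a single member, SAUR78 (AT1G72430), ranked 98.7 for Bur-0, 98.5 for Bay-0, 97.4 for Est-1 and 98.6 in Tsu-1 (chromosome 1, 27264361 to 27264550). Next came the gap between ASE2, a purine synthesis gene, and SAUR49 (AT4G34750), with ranks of 91.9, 96.0, 94.8 and 95.4. Between SAUR14 (AT4G38840) and SAUR15 (chromosome 4, 18125801 to 18126010) they were 98.6, 97.1, 97.0 and 90.3, and between SAUR28 and SAUR27 they were 64.4, 76.9, 76.8 and 60.5. Tsu-1 was the lowest in both of these last gaps.

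Gaps beside cytochrome P450 and glutathione transferase genes lay near the background. Cytochrome P450 genes had a region in 39 of 106 gaps (36.8%, 27.6 to 46.7) and one in all 4 accessions in 23 (21.7%, 14.3 to 30.8), and glutathione transferase genes in 14 (51.9%, 31.9 to 71.3) and 7 (25.9%, 11.1 to 46.3) of 27 gaps. These intervals include the background. The gap between GSTF9 and GSTF10 (chromosome 2, 13141181 to 13141370) ranked 84.6 for Bur-0, 88.3 for Bay-0, 89.5 for Est-1 and 88.3 for Tsu-1, with its midpoint 13 bp from GSTF10. A region beside GSTU27 ranked 77.6 to 88.6. The gap beside CYP97A3, a carotenoid hydroxylase gene of lutein synthesis (chromosome 1, 11396101 to 11396250), ranked 75.4, 91.5, 77.6 and 74.6, highest in Bay-0. Of 30 gaps with a P450 gene on both sides, 13 held a region and 9 one in all 4 accessions. The strongest of the 9 lay between CYP71B23 and CYP71B3 (ranks of 70.1 to 84.1), between CYP72A14 and CYP72A15 (66.7 to 88.8) and between CYP702A5 and CYP702A6 (66.3 to 79.5). Reads of near-identical copies can align to more than 1 place, and no source used here says how such reads were treated.

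Of the 16 NLR immune receptor genes found, 5 flanked a short gap. Their 6 gaps held a region in 4 cases and in all 4 accessions in 1, beside RPP13, a downy mildew resistance gene (chromosome 3, 17133441 to 17133610). It ranked 50.1 for Bur-0, 73.4 for Bay-0, 70.7 for Est-1 and 80.7 for Tsu-1. The 4 lists spread over more than 30 percentiles there, a range that 18.2% of the short-gap regions called in all 4 accessions exceeded. The gap between AT1G56500 and WRR4, a white rust resistance gene, was called in 3 accessions, and those beside RPM1 and DAR4 in 2 each.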

How the data were processed

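Peaks came from 4 DNase I-seq libraries, 1 for each accession, grouped by the accession in the source label. Read alignment with Bowtie 0.12.7 and the TAIR10 build come from names listed in the submitters' processing notes. Neither labels nor files give the peak caller, a threshold or the read depth. The deposited signal is a whole number without stated scaling and was used here only as a percentile within its own list. The deposited −log10 p, which stops at 324, only broke ties when lists were shortened.

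Nuclear peaks were merged where they overlapped. Gene spans came from a RefSeq table of assembly TAIR10.1, used here without strand. Sliding the gap map by 20 bp either way lowered the count of regions in short gaps from 4223 to 4186 and 4176, and larger shifts lowered it further. Missing means called in the other 3 accessions but not in the one named, and private means called in that one alone.

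Regions were named by both flanking genes under set rules: the 8 strongest in all 4 lists, 2 missing and 2 private per accession, 2 per gene list, 3 gaps with the most regions, and up to 6 gaps with both neighbours on 1 list. Other list genes given as examples were chosen after their values were seen. Members and lists were chosen with earlier results of these data known. One gene was matched by 17 of 18 clock, 16 of 24 NLR and 11 of 15 reference names. The splits by strand, the motif counts and the sequences planned for these regions were not run. Merging, gaps and placement were tested on simulated data. Python 3.11.15, pandas 2.3.3 and SciPy 1.17.1 were used.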

Additional observations from a re-analysis of the deposited data

How the results depend on the processing

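Settings were changed one at a time for the shares and median ranks of short-gap regions, and a value is given where it moved past its interval. With gaps of 200 to 500 bp, 4.51% of all regions lay in such gaps, 40.5% of gaps held one, 61.03% of the regions were called in all 4 accessions, 1.68% were missing from Bay-0 and 7.61% from Tsu-1, and the median ranks were 44.7 for Bur-0, 43.4 for Bay-0, 42.8 for Est-1 and 41.8 for Tsu-1. With gaps of 200 to 2000 bp, 25.1% of regions lay in gaps, 51.7% of gaps held one, and the ranks were 50.1, 50.9, 50.5 and 49.005. Bounded by all annotated genes, short gaps held 14.1% of regions, and 36.7% of them held one. With the whole region inside the gap, 6.13% of regions lay in short gaps, 25.3% of gaps held one, 55.7% of the regions were in all 4 accessions, and the ranks were 53.95, 53.9, 53.9 and 51.6. With the stronger 50% of each list, these shares were 11.2%, 22.9% and 49.2%. Missing shares were then 15.2% for Bur-0, 3.36% for Bay-0, 4.26% for Est-1 and 9.13% for Tsu-1, and the ranks for Bur-0, Est-1 and Tsu-1 were 44.2, 45.2 and 43.2. Merging regions up to 150 bp apart gave 64.2% in all 4 accessions and 11.7% missing from Bur-0, 1.83% from Est-1 and 5.51% from Tsu-1. Peaks covering at least 50% of the region gave 55.9% in all 4. Lists of equal length gave 41.1% of gaps with a region and missing shares of 8.82% for Bur-0, 3.12% for Bay-0 and 4.23% for Est-1.

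Without 1 accession, the share called in all the others ran from 61.5 to 68.2% and gaps with a region from 43.4 to 44.9%. Missing shares ran from 14.3 to 18.3% for Bur-0, 7.89 to 12.1% for Tsu-1, 4.23 to 4.85% for Est-1 and 3.87 to 4.82% for Bay-0. The other 45 and 19 values stayed within the interval or spread of the reported value. The cause of each move was not tested. Sharing by rank and by gap was added after the data were seen. No paired analysis was possible because each accession had 1 library with no replicate number. Divergent, tandem and convergent pairs were not run. Read depth is unknown, and missing calls were mostly at weak regions.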

Other observations

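Some short gaps between protein-coding genes held a gene of another kind. Of the 7908 short gaps, 624 overlapped a non-coding gene or pseudogene, and 299 of these held a region (47.9%, 43.9 to 51.9), against 3305 of the 7284 others (45.4%, 44.2 to 46.5). The regions in gaps with another gene were called in all 4 accessions in 52.4% (47.1 to 57.7) of 353 cases, and those in the remaining gaps in 58.7% (57.2 to 60.3) of 3870. Gaps with a tRNA gene held a region in 104 of 189 cases (55.03%, 47.6 to 62.3), and 48.8% (39.6 to 58.0) of their 121 regions were called in all 4 accessions. Gaps with a long non-coding RNA gene held one in 142 of 287 cases (49.5%, 43.6 to 55.4). The few gaps with small RNA genes gave 9 of 12 for snRNA, 7 of 12 for snoRNA and 6 of 18 for microRNA genes.

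The chromosomes were alike. The share of short gaps with a region ran from 43.3% (40.4 to 46.3) on chromosome 2 to 46.6% (44.4 to 48.9) on chromosome 5, and the share of their regions called in all 4 accessions from 56.9% (53.8 to 59.8) on chromosome 1 to 59.97% (55.8 to 64.0) on chromosome 2.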
